A study of Mus musculus with 4 samples.

Results

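GCimm2 is the later of the 2 clusters of immature granule cells that the authors assigned in single-nucleus RNA sequencing of adult-born neurons of the mouse dentate gyrus, and its members were taken from the cluster assignment deposited with the expression table. It held 979 of 14367 clustered nuclei. The nuclei came from mice that carry a tamoxifen-inducible Cre and CAGfloxStopSun1sfGFP, so that tamoxifen switches on a GFP tag of the nuclear envelope in stem and progenitor cells and in their later progeny. The 4 libraries (w1, w2, w4 and w8) hold nuclei sorted for the tag 1, 2, 4 and 8 weeks after tamoxifen. Each is 1 pool of left dentate gyri from 4 mice, male and female, of C57Bl/6J background. The age of the mice at collection is not given per library. It may differ between libraries, because the interval after tamoxifen differs. All libraries share the genotype and the induction, and no library comes from mice without either.

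New granule cells arise throughout life from radial glia-like stem cells (RGL) at the inner border of the granule cell layer. Their daughters divide as progenitors, become neuroblasts (clusters NB1 and NB2) and then immature granule neurons, which carry doublecortin, extend a dendrite and a mossy fibre axon, and respond to GABA before glutamatergic inputs form. Later granule neurons (clusters GCyoung, GCmat1 and GCmat2) lose doublecortin, gain calbindin and fire as sparsely active excitatory cells. In the deposited order GCimm2 stands between GCimm1 and GCyoung.

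The cluster was absent from w1, where 0 of 2867 nuclei belonged to it, which allows a share of up to 0.105% by the limit of 3 counts (exact 95% Clopper-Pearson upper bound 0.129%). It made up 12.8% of the nuclei of w2 (545 nuclei; exact 95% Clopper-Pearson interval 11.9% to 13.9%), 10.6% of w4 (406 nuclei; 9.64% to 11.6%) and 0.817% of w8 (28 nuclei; 0.544% to 1.18%). Most GCimm2 nuclei were therefore from w2 (55.7%) and w4 (41.5%). Intervals of shares and levels cover counting error only, and with a single pool of mice behind each week, weeks were compared without a test. The clustered nuclei of a library summed to between 13227971 and 28595331 UMIs (unique molecular identifiers, each 1 captured RNA molecule), and GCimm2 to 5011870 UMIs in w2, 2317325 in w4 and 150112 in w8. The 28 nuclei of w8 are thin, and 3 counts there correspond to 20.0 counts per 1e+06 UMIs (CPM), the level that a count of 0 allows. GCimm2 nuclei had a median of 8777 UMIs in w2, 5382.5 in w4 and 4661 in w8, an order opposite to that of the whole libraries (5053, 6239 and 7703.5). Of all 17046 barcodes, 27 occurred in more than 1 library, and 4 GCimm2 nuclei carried one of them. In w4 the study left out a group of nuclei that were mostly male, and 73.0% of the GCimm2 nuclei of w4 with a sex call were female, against 84.4% in GCyoung and 72.1% in GCimm1 of the same library. The share was 74.2% in w2, and in w8 2 of 20 GCimm2 nuclei with a call were female against 18.5% of GCyoung nuclei. The part of sex in the differences given here was not tested.

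The 4 markers used to recognise the cluster followed 3 courses along the trajectory. Plppr1 (chr4:49059273-49340259, GRCm38, plus strand), a membrane protein of the lipid phosphatase-related family that promotes filopodia and neurite outgrowth, reached 992 CPM in w2, 975 CPM in w4 and 1066 CPM in w8 (exact 95% Poisson intervals 965 to 1020, 935 to 1016 and 907 to 1244). Its pooled level in GCimm2, 988 CPM, was the highest of the 13 clusters, above GCimm1 with 579 CPM, oligodendrocyte precursor cells with 496 CPM and GCyoung with 445 CPM. It was thus the single marker of the set that peaked here. Camk2a (chr18:60925618-60988152, plus strand), the alpha subunit of the calcium and calmodulin-dependent kinase of glutamatergic synapses, stood at 624, 540 and 540 CPM in w2, w4 and w8. These levels lay between the 95.0 CPM of GCimm1 and the 1156 CPM of GCyoung. Gria3 (chrX:41400854-41678601, plus strand), an AMPA receptor subunit, stood at 280, 287 and 313 CPM, again between GCimm1 (118 CPM) and GCyoung (676 CPM). Sema3c (chr5:17574281-17730268, plus strand), a secreted axon guidance cue, followed the opposite course with 685, 535 and 540 CPM, below NB1 (881 CPM), NB2 (1835 CPM) and GCimm1 (1439 CPM) and far above GCyoung (14.4 CPM). The markers were given with the cluster, and the cluster was drawn on the same expression values, so their joint presence describes it and is no test of the label. Of GCimm2 nuclei 49.2% had at least 1 UMI of all 4 genes, against 11.1% of GCimm1, 6.99% of GCyoung and 1.97% of GCmat1 nuclei. After each nucleus was thinned to 2000 UMIs the shares were 9.09%, 2.42%, 0.782% and 0.298%, so the order held at equal depth. Oligodendrocytes, which should lack the neuronal genes, had a UMI of Plppr1 in 0 of 45 nuclei and of Camk2a in 20.0%, at a median of 4801 UMIs against 6979 in GCimm2, where the shares were 97.2% and 88.2%.

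**Figure D1:**
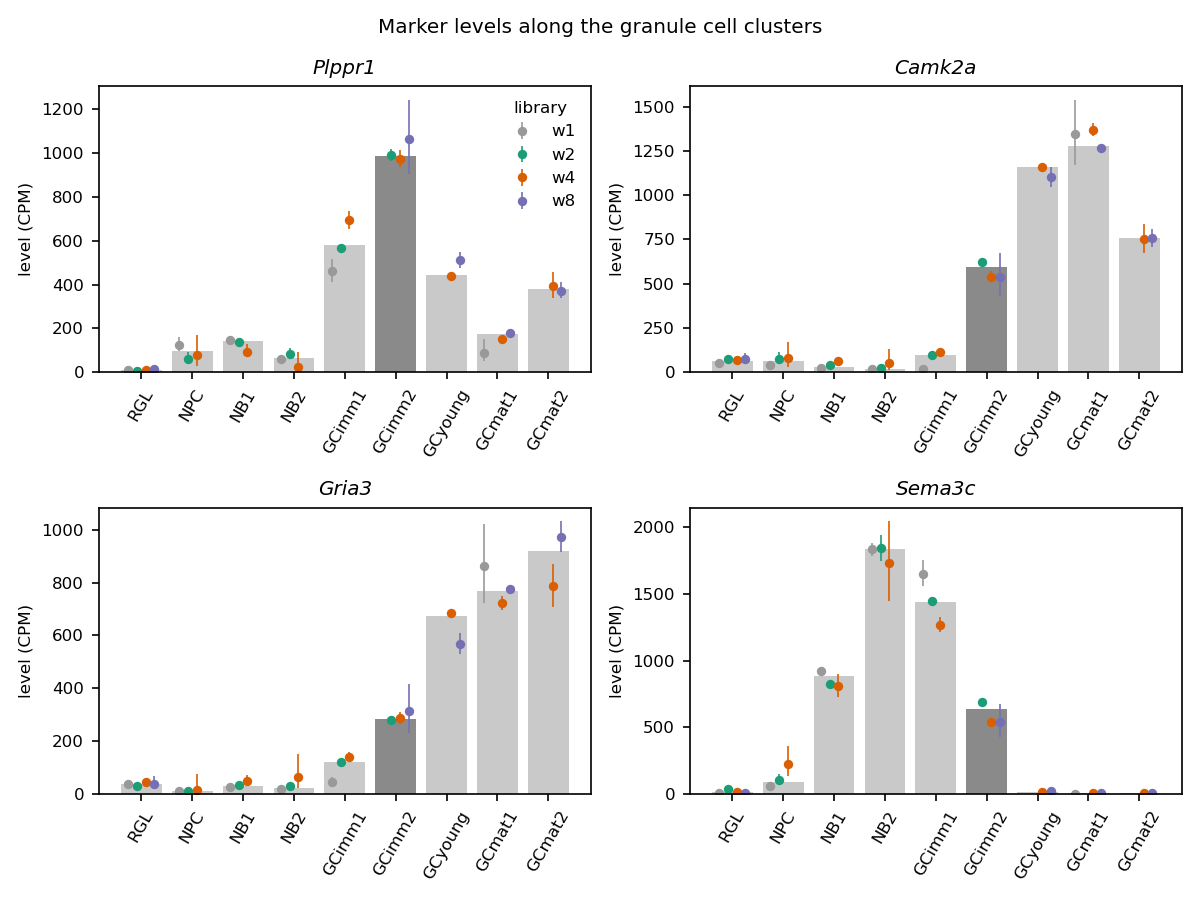
Levels of Plppr1, Camk2a, Gria3 and Sema3c (CPM, linear axes from 0) in 9 clusters from RGL to GCmat2. Bars are the pooled level (GCimm2 dark), points are libraries with at least 10 nuclei of the cluster, and lines are exact 95% Poisson intervals. Plppr1 alone is highest in GCimm2, Camk2a and Gria3 are higher in GCyoung, and Sema3c is higher in NB1, NB2 and GCimm1.

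Markers of other cell types were near the levels of the neighbouring clusters in GCimm2, with 1 exception. The 8 oligodendrocyte lineage markers summed to 78.3 CPM (oligodendrocytes 14905 CPM), with 5 of the 8 at 0 in w8, 2 in w2 and 1 in w4. The 9 interneuron markers summed to 85.7 CPM (77.6 in w2 to 120 in w8), the 10 microglial, endothelial and leptomeningeal markers to 50.3 CPM (46.2 to 79.9), and the 10 astrocyte and stem cell markers to 274 CPM (246 to 277). The neighbours held similar sums, with 110, 60.2 and 367 CPM in GCimm1 for the last 3 lists and 63.0, 47.3 and 286 CPM in GCyoung. The 8 pyramidal and mossy cell markers summed to 270 CPM in w2, 176 in w4 and 207 in w8, above 119 CPM in GCimm1 and 29.4 CPM in GCyoung. Of these CPM most were Cntn6 (261, 150 and 207 CPM), and 2 of the 8 genes were at 0 in w2 and in w4 and 7 in w8. Mitochondrially encoded genes summed to 46.3 CPM in w2, 44.4 in w4 and 0 in w8.

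By the Pearson correlation of log2 levels across genes, the nearest cluster was GCimm1 in w2 (r = 0.964 over 13853 genes) and in w4 (r = 0.958 over 12997 genes), where GCyoung followed with r = 0.926. In w8, where GCimm1 held 1 nucleus, the nearest was GCyoung (r = 0.822 over 12607 genes). These values describe the order of likeness within a library, and genes are not independent replicates. The sums were not thinned and differed in depth, with 150112 UMIs in GCimm2 of w8 against 1434526 in GCyoung. The part of depth in r was not tested. The deposited pseudo-time, a position along the trajectory computed by the authors, had a median of 19.9 in GCimm2 (quartiles 19.4 and 20.6), against 16.9 in GCimm1 and 27.2 in GCyoung. Of the GCimm1 nuclei 38.6%, and of the GCyoung nuclei 7.54%, lay within the range of GCimm2 (17.3 to 24.8), which is set by its outermost nuclei. The central 90% of GCimm2 nuclei spanned 18.7 to 21.3, where the 95th percentile of GCimm1 was 18.8 and the 5th percentile of GCyoung was 24.7.

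Because the clusters were defined on the same expression values, differences between clusters are given here as descriptions and carry no p-value. A gene was called higher or lower when the summed levels of 2 groups differed at least 1.5-fold the same way within every library that held both, among genes with at least 50 UMIs over all sums. Against all other nuclei of the same library, 398 of 15875 genes were higher (2.51%) and 279 were lower (1.76%) in w2, w4 and w8, 4.26% in all. GCimm2 was the highest of all clusters for 186 of these 398 genes and the second highest for 122. The counts depended on every library: they were 2285 and 831 of 14457 genes without w2, 620 and 568 of 15142 without w4, 387 and 1194 of 15128 without w8, and with the amount added to each sum scaled by depth they were 217 and 1241. The median over all genes was -0.28 (log2) in w2, 0.13 in w4 and 0.63 in w8, and the median of the genes' mean differences over libraries, 0.13, was -0.18 with the depth-scaled amount.

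Against all other nuclei, 3 of 35 Slit, Robo, netrin and Eph genes were higher (8.57%) and 5 lower (14.3%), where 2.51% and 1.76% of all genes were; with TMM scaling 5 were higher and 4 lower. Of 26 semaphorin, plexin and neuropilin genes 1 was higher and 1 lower (3.85% each), and 4 and 2 with TMM scaling. Of 55 transcription factors 1 was higher (1.82%) and 8 were lower (14.5%), and 1 and 10 with TMM scaling. The largest cluster among the other nuclei was GCimm1 in w2 (1933 nuclei), GCyoung in w4 (1979) and GCmat1 in w8 (2927). The SDs over libraries given here therefore include a change of the group compared. Cntnap2 (chr6:45059357-47304213, plus strand), a neurexin-like protein that anchors potassium channels of axons, stood at 734, 907 and 1399 CPM in GCimm2 of w2, w4 and w8 and at 177, 330 and 277 CPM in the other nuclei (log2 difference 1.95 ± 0.45, SD over 3 libraries). Cntnap2 was named among genes called higher in every library, so the separation of its levels from those of the other nuclei follows from that choice. Robo1, a receptor of Slit ligands, stood at 817, 823 and 1033 CPM against 502, 326 and 162 CPM (1.57 ± 1.01). Sema6d, a transmembrane semaphorin, was among the most abundant of them with 1832, 2280 and 2645 CPM against 1006, 1115 and 664 CPM (1.30 ± 0.61). Gabrg3, a GABA-A receptor subunit, was higher by 1.17 ± 0.22, Sorcs2, a sorting receptor of the VPS10 family, by 1.5 ± 0.39, and Syn3, a synapsin of vesicle clusters, by 1.17 ± 0.57. Camk4, a nuclear calmodulin-dependent kinase, was higher by 1.65 ± 0.98, although its level in GCimm1 alone was close to that in GCimm2, as given below. Among genes with at least 50 UMIs in GCimm2 of each library, the largest mean difference belonged to Galntl6 (441, 551 and 520 CPM against 157, 127 and 33.8 CPM), an enzyme of the mucin-type glycosyltransferase family, followed by Mgat4c with 2.22 ± 1.22. Among genes lower than in all other nuclei were Slc1a3, the glutamate transporter of astrocytes and RGL (7.38, 7.34 and 6.66 CPM against 625, 304 and 113 CPM), the progenitor transcription factor Sox6, the phosphatase Ptprt and the netrin receptor Unc5d. Sox6, Ptprt and Unc5d were at 0 in GCimm2 of w8, as were Csgalnact1 and Svil, which were lower too.

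To find what separates the 2 immature clusters, GCimm2 was set against GCimm1 within w2 and within w4. Of 12723 genes, 588 were higher in GCimm2 (4.62%) and 835 were lower (6.56%), 11.2% in all. Each sum is scaled to its own total, and the median gene stood at -0.17 (log2); with trimmed mean (TMM) scaling, which sets the median near 0, the split turned to 834 higher and 461 lower. Without w4 the counts were 884 and 1758 of 12240 genes tested. The glutamate and GABA receptor, potassium and sodium channel and kinase lists had more members higher than lower under both scalings, and calcium channels had none called without TMM scaling. Counts of list members below are to be read beside the 4.62% higher and 6.56% lower of all genes.

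Among glutamate receptors, the AMPA, kainate and delta receptor list had 3 of 11 measured members higher, Gria3 and Grid1 among them, and 1 lower (Grik3, not called with TMM scaling). Gria3 stood at 120 and 139 CPM in GCimm1 of w2 and w4 and at 280 and 287 CPM in GCimm2, a log2 difference of 1.13 ± 0.13 (SD over 2 libraries, as for the other differences between clusters). The abundant subunit Gria1 went from 2161 and 2045 CPM to 2592 and 2685 CPM, short of 1.5-fold. Of 5 NMDA receptor genes 1 was higher: Grin2a, the subunit that comes to dominate mature synapses, with 437 and 416 CPM in GCimm1 and 1102 and 959 CPM in GCimm2 (1.27 ± 0.09). The early subunit Grin2b stood at 2110 and 1995 CPM and at 2154 and 1946 CPM, a difference of 0.00 ± 0.05. Of 6 metabotropic receptors 3 were higher and none lower, among them Grm3 by 2.03 ± 0.19 and Grm7 by 0.71 ± 0.00. The listed auxiliary proteins of glutamate receptors had 5 of 18 higher and 1 lower. The list lacks Gsg1l, another such protein, which was lower by 3.65. Shisa6, which holds AMPA receptors at synapses, stood at 53.3 and 74.5 CPM in GCimm1 and at 267 and 309 CPM in GCimm2 (2.19 ± 0.20), and Shisa9 was higher by 2.04 ± 0.75, whereas Cacng4, a stargazin relative, was lower by 0.94 ± 0.14 (54.1 and 65.9 CPM against 26.1 and 36.7 CPM).

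Inhibitory receptor and transporter genes also differed. Among 13 GABA receptor genes 3 were higher (Gabrb1, Gabrb2 and Gabrd) and 1 was lower (Gabrg1, not called with TMM scaling). Gabrb1, a beta subunit, went from 560 and 716 CPM to 1664 and 1616 CPM (1.37 ± 0.28). Of the chloride and transmitter transporters 3 of 6 were higher. Slc12a5, the potassium chloride exporter KCC2 that makes GABA inhibitory, stood at 24.8 and 24.6 CPM in GCimm1 and at 56.9 and 46.6 CPM in GCimm2 (1.05 ± 0.21), while the importer Slc12a2 stood at 48.2 and 48.6 CPM and at 47.5 and 43.2 CPM. Slc17a7, the vesicular glutamate transporter VGLUT1 of granule cells, was higher by 1.64 ± 0.63, and Slc17a6 (VGLUT2) stood at 74.6 and 58.5 CPM in GCimm1 and 52.9 and 36.2 CPM in GCimm2, short of 1.5-fold in w2.

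Potassium channels were among the lists with many members higher. Of 44 potassium and HCN channel genes 15 were higher and 3 lower (median log2 difference 0.35, against -0.17 over all genes). Kcnd2, the pore of the A-type current, went from 860 and 1045 CPM to 2083 and 2257 CPM (1.19 ± 0.12). Its accessory subunit Kcnip4 moved most, from 78.2 and 136 CPM to 1766 and 655 CPM (3.38 ± 1.58), and w2 and w4 differed in its level within GCimm2. The members that were lower included the M-current subunit Kcnq5 (330 and 182 CPM in GCimm1 against 109 and 83.3 CPM in GCimm2) and the BK channel subunit Kcnmb2 (117 and 89.2 CPM against 47.5 and 39.7 CPM). Scn8a and Scn9a were the 2 of 13 measured sodium channel and intracellular FGF genes that were higher, and 0 of 14 calcium channel genes were called either way (2 higher with TMM scaling). Calmodulin kinases and plasticity enzymes had 7 of 26 higher and 0 lower. Camk2a went from 96.7 and 115 CPM to 624 and 540 CPM (2.46 ± 0.33), and Rasgrf1, a calcium-activated Ras exchange factor, was higher by 2.59 ± 2.08, a spread nearly as large as the difference. Camk4 stood at 419 and 479 CPM in GCimm1 and at 432 and 460 CPM in GCimm2.

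Among release and scaffold genes, 5 of 45 presynaptic genes were higher (11.1%, against 4.62% of all genes) and 2 lower (4.44%, against 6.56%). Of 54 postsynaptic and adhesion genes 9 were higher (16.7%) and 4 lower (7.41%), so the shares lower were near that of all genes. With TMM scaling the splits were 8 and 1, and 13 and 3. The clearest single members were Dlgap2, a scaffold of the postsynaptic density (136 and 184 CPM against 802 and 709 CPM; 2.25 ± 0.43), Tenm1, a teneurin adhesion molecule (2.98 ± 0.46), and Syt17, an atypical synaptotagmin (2.99 ± 0.11). Lrrtm3 and Tenm4, both adhesion molecules, differed by -1.5 ± 0.41 and -0.97 ± 0.21.

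Markers of earlier stages were lower in GCimm2. Of 14 measured immature neuron markers 8 were lower and 0 higher, and of 15 mature granule neuron markers 8 were higher and 1 (Inpp4b) lower. Both lists come in part from the study of these nuclei, so the counts are not independent evidence of direction. Sox11, a SoxC transcription factor of young neurons, stood at 565 and 500 CPM in GCimm1 and at 320 and 278 CPM in GCimm2 (-0.83 ± 0.02), and Sox4 was lower by 1.29 ± 0.05. Dcx, the microtubule protein doublecortin, stood at 314 and 331 CPM against 209 and 227 CPM, short of 1.5-fold. Of 23 semaphorin, plexin and neuropilin genes 6 were lower (Sema3a, Sema3c, Sema5b, Sema6c, Plxna2 and Plxnb1) and 1 (Sema6a) was higher, with 4 lower under TMM scaling, where Plxna2 (-0.56) was no longer called. The cytoskeletal and growth cone list had 1 of 30 lower (Stmn1) and 0 higher, and with TMM scaling 0 lower and 1 higher. Of 53 transcription factors 5 were higher (9.43%, against 4.62% of all genes) and 7 lower (13.2%, against 6.56%). With TMM scaling the split was 7 and 6. St18, a zinc finger factor, went from 16.4 and 15.4 CPM to 87.8 and 63.4 CPM, and Klf9, a hormone-responsive factor of late granule cells, from 19.2 and 30.2 CPM to 51.5 and 56.5 CPM.

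The largest differences from GCimm1, among genes with at least 50 UMIs in the higher group of each library, included those of Kcnip4, Syt17 and Tenm1 given above and several genes outside the lists. Cdh13 (chr8:118283733-119324921, plus strand), a cadherin held by a lipid anchor, stood at 3.56 and 1.85 CPM in GCimm1 and at 58.1 and 64.7 CPM in GCimm2 (4.46 ± 0.64). Asic2, an acid-sensing channel, was higher by 3.39 ± 1.89, Trpm3, a cation channel, by 3.17 ± 0.87, Rimbp2, an active zone protein, by 3.09 ± 0.61, and Epha5, an ephrin receptor, by 2.96 ± 0.25. On the other side Plcb4 (chr2:135659011-136014593, plus strand), a phospholipase C, stood at 71.9 and 70.2 CPM in GCimm1 and at 3.99 and 3.02 CPM in GCimm2 (-4.29 ± 0.22). Gsg1l, an AMPA receptor auxiliary protein, was lower by 3.65 ± 0.59 and Calb2, the calretinin of young granule neurons, by 1.96 ± 0.12.

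**Figure D2:**
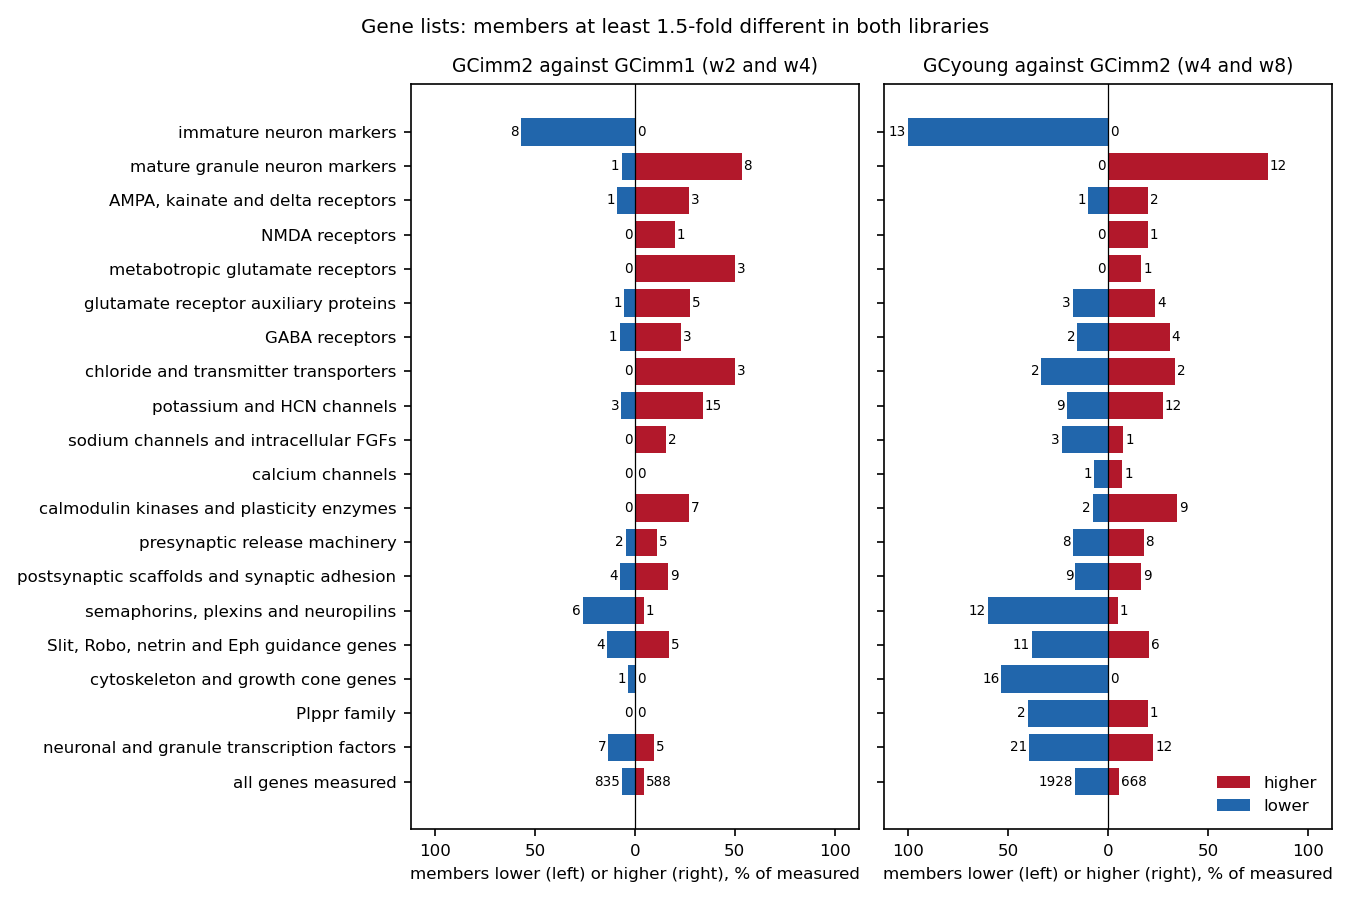
Percentage of measured members of 19 gene lists, and of all genes, called higher (red, right) or lower (blue, left) in GCimm2 against GCimm1 and in GCyoung against GCimm2, with the number of genes beside each bar. Glutamate and GABA receptor, potassium and sodium channel and kinase lists have more members higher than lower at the first step and calcium channels none called, while the semaphorin, cytoskeletal and immature marker lists have more members lower at the second.

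The step after it was read from GCyoung against GCimm2 within w4 and w8. It shares the GCimm2 nuclei of w4 with the comparison above, so the values of the 2 steps are given side by side only. Of 11756 genes, 668 were higher in GCyoung (5.68%) and 1928 were lower (16.4%), 22.1% in all. Counts of list members below are to be read beside these shares. The median gene stood at -0.24 (log2), and with TMM scaling the split was 1232 higher and 1001 lower, so the balance of the 2 directions depended on the scaling. Without w4 the counts were 792 and 965 of 4467 genes tested, and without w8 1161 and 2847 of 11597. GCyoung nuclei of w4 had a median of 7480 UMIs against 5382.5 in GCimm2, and the part of depth in the differences was not tested beyond thinning, under which 541 genes were higher and 1262 lower of 8664 tested.

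All 13 measured immature neuron markers were lower in GCyoung (12 with TMM scaling). Sox11 stood at 278 and 266 CPM in GCimm2 of w4 and w8 and at 61.0 and 64.8 CPM in GCyoung (-2.12 ± 0.10), and Igfbpl1 at 321 and 173 CPM against 50.9 and 38.3 CPM. Dcx stood at 227 and 226 CPM against 81.1 and 72.5 CPM (-1.57 ± 0.12). Of 30 cytoskeletal and growth cone genes 16 were lower and 0 higher (10 lower with TMM scaling), among them Gap43, the growth cone protein, with 73.4 and 46.6 CPM against 11.9 and 10.5 CPM, and Stmn2, a microtubule-destabilising stathmin, with 250 and 306 CPM against 46.5 and 42.5 CPM. In GCimm2 these 2 genes were still at levels close to those of GCimm1, where Stmn2 stood at 279 and 275 CPM and Gap43 at 50.8 and 68.9 CPM in w2 and w4.

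Guidance genes followed. Of 20 semaphorin, plexin and neuropilin genes 12 were lower in GCyoung and 1 higher (8 and 1 with TMM scaling). Sema3c stood at 535 and 540 CPM in GCimm2 and at 14.0 and 18.1 CPM in GCyoung (-5.07 ± 0.27), and the semaphorin receptors Nrp1, Nrp2 and Plxna2 were lower by 1.39 ± 0.11, 1.61 ± 0.12 and 1.92 ± 0.10. Among 29 Slit, Robo, netrin and Eph genes 11 were lower and 6 higher (9 and 9 with TMM scaling). Robo1 went from 823 and 1033 CPM to 339 and 390 CPM, and Dcc, the netrin receptor, from 7069 and 6615 CPM to 1946 and 2526 CPM, while Robo2 was higher by 1.59 ± 0.31. In the family of Plppr1, whose 5 members were all measured, none was called against GCimm1 (1 was higher with TMM scaling), and at the next step Plppr1 was lower by 1.11 ± 0.07, Plppr3 was lower by 2.33 ± 0.13 and Plppr2 was higher by 0.77 ± 0.06.

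Mature granule neuron markers were higher in GCyoung for 12 of 15 genes and lower for none. Kirrel3, an adhesion molecule of mossy fibre synapses, stood at 482 and 553 CPM in GCimm2 and at 2253 and 2388 CPM in GCyoung (2.16 ± 0.09), and Calb1, calbindin, at 22.0 and 6.66 CPM against 115 and 86.4 CPM. Grin2a and Camk2a, already higher in GCimm2 than in GCimm1, were higher again by 1.69 ± 0.05 and 1.06 ± 0.06. Kcnip4 was higher by 3.90 ± 0.16, with 655 and 473 CPM in GCimm2 and 9026 and 7718 CPM in GCyoung. Inpp4b, a phosphoinositide phosphatase, was lowest in GCimm2 of the 3 clusters and stood at 20.3, 3.45 and 79.5 CPM in GCimm1, GCimm2 and GCyoung of w4. Of 44 potassium and HCN channels 12 were higher (27.3%, against 5.68% of all genes) and 9 lower (20.5%, against 16.4%), and 17 and 8 with TMM scaling. Among the lower was Kcnq5 with 83.3 and 167 CPM in GCimm2 and 26.0 and 29.3 CPM in GCyoung. Of 53 transcription factors 12 were higher and 21 lower (14 and 11 with TMM scaling). Prox1, the identity factor of granule cells, was lower by 0.86 ± 0.03, with 820 and 906 CPM against 460 and 495 CPM, but differed by -0.54 with TMM scaling, short of 1.5-fold, and Nr3c1, the glucocorticoid receptor, was higher, with 10.4 CPM in GCimm2 against 70.4 CPM in GCyoung of w4, and 0 UMIs in GCimm2 of w8. Among genes with at least 50 UMIs in GCyoung of each library, the largest mean difference was that of Csgalnact1 (chr8:68356781-68735146, minus strand), an enzyme of chondroitin sulfate synthesis, with 2.16 CPM in w4 and 0 in w8 against 150 and 156 CPM. Its size (5.77, with Fam19a1 next at 5.70) depends on the amount added to the count of 0.

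In w4, the single library with more than 100 nuclei of all 3 clusters, 164 of 10366 genes stood at least 1.5-fold above both neighbours (1.58%) and 128 at least 1.5-fold below both (1.23%), 2.82% in all. Here the minimum was 100 UMIs over the 3 sums, not 50. The balance turned with other settings, to 131 above and 186 below with TMM scaling and 98 and 125 of 6745 genes tested after thinning. The 12 largest by the rule used were of low level apart from Snhg11, a host gene of small nucleolar RNAs, and Greb1l. Nectin3, an adhesion molecule also used as a marker of pyramidal cells, led with 16.4 CPM (38 UMIs) against 3.08 CPM in GCimm1 and 4.37 CPM in GCyoung, but stood at 5.59 CPM in w2 and 0 in w8. It is 1 of the 2 members of the pyramidal and mossy cell list that were above both neighbours, with Cntn6, and the part of such cells was not tested. The same 2 differences can be read in the libraries that the call did not use, GCimm1 in w2 and GCyoung in w8, although the clusters were drawn on all libraries together. Of the 164 genes 49 (29.9%) were above GCimm1 in w2, against 8.46% of all genes measured. Above GCyoung in w8 were 98 (59.8%), against 34.4%, a high share in the thin w8 sum. Both were passed by 34 (20.7%), against 152 of all 10366 genes (1.47%), and 18 of the 34 had at least 100 UMIs in GCimm2 of w4. The genes described next were chosen among these 18 after their values were seen.

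Cntnap2 was the most abundant of them, with 245, 907 and 401 CPM in GCimm1, GCimm2 and GCyoung of w4, 200 and 734 CPM in GCimm1 and GCimm2 of w2, and 1399 and 478 CPM in GCimm2 and GCyoung of w8. Of the contactins, adhesion partners of axonal receptors, Cntn6 stood at 84.9, 150 and 17.7 CPM in w4 and Cntn4 at 140, 221 and 75.1 CPM. Both were higher in oligodendrocyte precursor cells (324 and 1419 CPM) than in GCimm2. Chrm3, the M3 muscarinic acetylcholine receptor, stood at 104, 214 and 52.9 CPM in w4, at 78.4 and 307 CPM in w2 and at 220 and 84.3 CPM in w8. Kctd8, an auxiliary subunit of GABA-B receptors, stood at 118, 186 and 34.2 CPM in w4, and Scn9a, a sodium channel, at 25.2, 57.4 and 16.6 CPM. Sema6a, the one listed semaphorin called at least 1.5-fold above GCimm1 in w2 and w4, stood at 72.6, 113 and 24.0 CPM in w4. Its w8 value in GCimm2 was 66.6 CPM, with a wide interval (31.9 to 123 CPM). Snhg11 stood at 144, 395 and 165 CPM in w4 and at 262 and 813 CPM in w2, and was higher again in GCmat2 (896 CPM), so its course along the clusters had more than 1 peak.

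**Figure D3:**
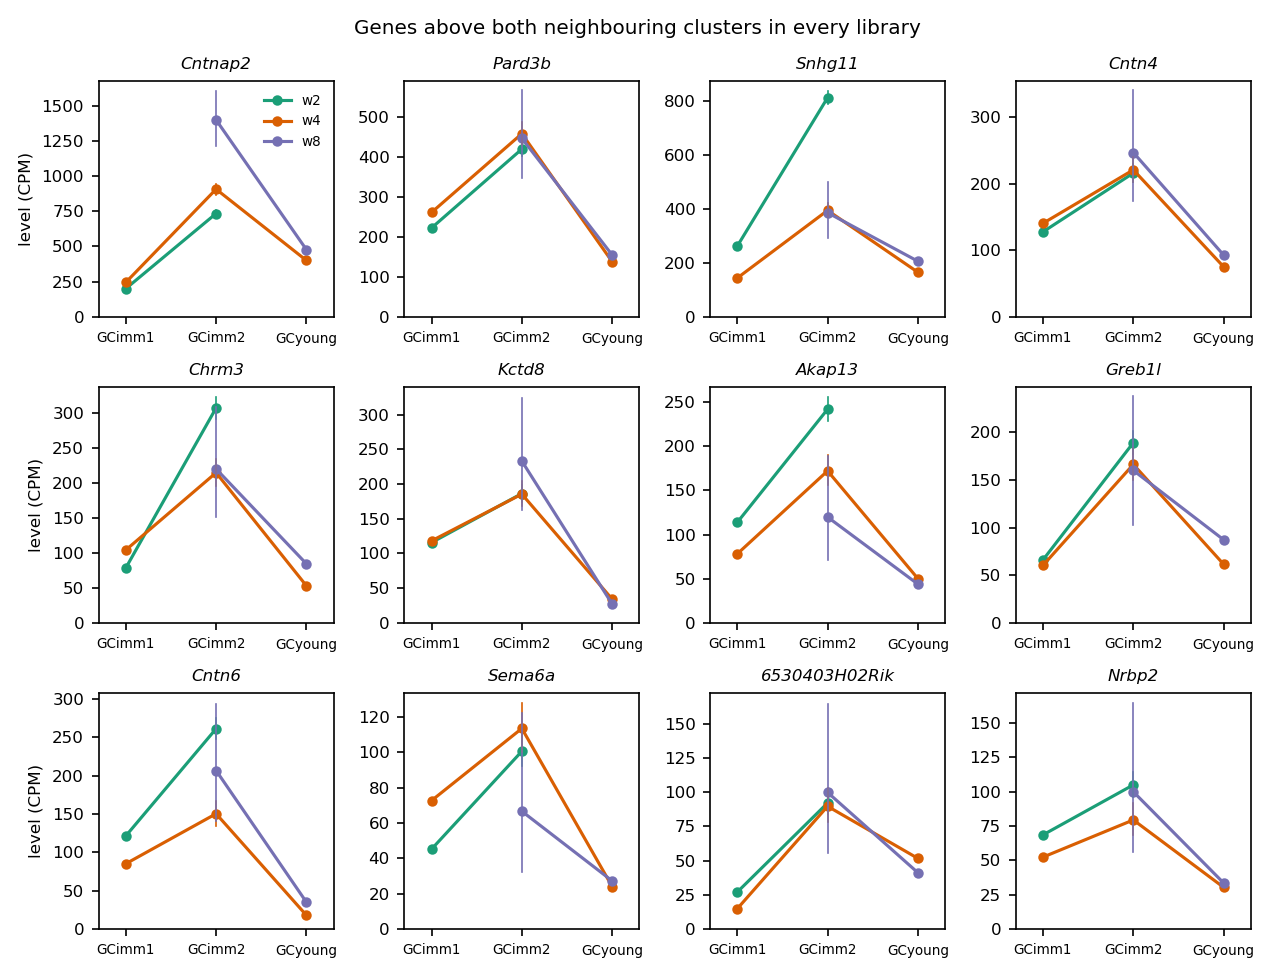
Levels (CPM, linear axes from 0) of the 12 most abundant genes above both GCimm1 and GCyoung in w4 and above the neighbour present in w2 and in w8. Points are summed levels of a cluster in a library, joined within the library, and vertical lines at GCimm2 are exact 95% Poisson intervals. In each panel the GCimm2 point is the highest of its library, as the choice of genes requires.

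The promoters of Cntn6 and Snhg11, and of the marker Plppr1, are shown as RefSeq gives the 250 bases before the start on GRCm38.p6, so that shared motifs can be looked for. Plppr1 was highest in GCimm2 by its pooled level but was not 1.5-fold above GCimm1 in w4 (975 against 693 CPM), so it is not among the 164 genes. This depends on the scaling, since with TMM scaling 1 of the 5 genes of its family was above both neighbours. Capitals mark the E-boxes CAGATG, searched on both strands, and CAGCTG, which reads alike on both, the letters that neuronal bHLH factors of the NeuroD family read.
Plppr1: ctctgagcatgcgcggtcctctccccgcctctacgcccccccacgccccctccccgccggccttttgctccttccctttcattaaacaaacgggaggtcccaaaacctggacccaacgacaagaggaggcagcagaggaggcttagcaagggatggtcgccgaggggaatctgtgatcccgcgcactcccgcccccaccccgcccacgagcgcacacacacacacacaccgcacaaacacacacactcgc
Cntn6: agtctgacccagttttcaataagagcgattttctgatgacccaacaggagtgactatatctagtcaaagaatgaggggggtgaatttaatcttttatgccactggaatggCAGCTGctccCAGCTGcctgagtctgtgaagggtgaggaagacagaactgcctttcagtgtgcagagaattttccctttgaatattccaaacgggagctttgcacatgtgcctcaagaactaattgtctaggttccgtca
Snhg11: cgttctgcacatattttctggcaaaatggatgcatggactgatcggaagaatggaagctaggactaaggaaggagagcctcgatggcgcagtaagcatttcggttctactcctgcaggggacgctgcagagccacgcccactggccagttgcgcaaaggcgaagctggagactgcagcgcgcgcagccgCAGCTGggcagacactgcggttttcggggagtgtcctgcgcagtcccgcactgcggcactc
The first lies at chr4:49059212-49059461, the next at chr6:104492794-104493043 and the last at chr2:158375463-158375712, each on the plus strand. The RefSeq starts used here differ from those of the gene models above. The promoters hold 0, 2 and 1 of the E-boxes. Of 121 genes above both neighbours that had a RefSeq promoter, 31 held at least 1 (25.6%), against 6833 of 27025 promoters in all (25.3%), so the motif was as frequent among them as elsewhere. Members of that family were present in GCimm2, with Neurod2 at 112, 116 and 79.9 CPM in w2, w4 and w8, and Neurod6 at 33.1 and 25.9 CPM in w2 and w4; the 2 UMIs of Neurod6 in w8 lie under the limit that a count of 0 allows.

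Within the cluster, nuclei of w2 and w4 were divided at the median pseudo-time of all GCimm2 nuclei, which gave 288 early and 257 late nuclei in w2 and 191 and 215 in w4. Pseudo-time comes from the same expression values, so the comparison describes how nuclei vary and is no test. Of 10158 genes, 248 were higher in late nuclei (2.44%) and 318 were lower (3.13%) in both libraries, 5.57% in all. With TMM scaling the split turned to 345 higher and 214 lower, and without w4 the counts were 497 and 797 of 9124 genes tested. Late nuclei were also deeper, with a median of 9959 UMIs against 7821 in w2 and 5860 against 4956 in w4.

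Late nuclei held more of the mature granule neuron markers, 8 of 12 measured being higher and 0 lower. Camk2a stood at 369 CPM in early and 843 CPM in late nuclei of w2 and at 333 and 693 CPM in w4 (1.12 ± 0.10), and Grin2a was higher by 0.69 ± 0.04. Kcnip4 spanned the widest range of the channels, with 405 and 2933 CPM in w2 and 294 and 921 CPM in w4. Among the largest differences, Il1rapl2, a synaptic adhesion molecule of the interleukin-1 receptor family, went from 10.4 to 168 CPM in w2 and from 7.11 to 57.0 CPM in w4, and Rasgrf1 from 10.8 to 136 CPM and from 12.2 to 73.5 CPM. Neto1, an auxiliary subunit of kainate and NMDA receptors, was higher by 2.77 ± 0.65. Early nuclei held more of Bmper, a regulator of BMP signals (82.6 and 17.8 CPM in early and late nuclei of w2, 48.8 and 12 CPM in w4), and of Lrrtm3 (178 and 55.6 CPM, 260 and 85.5 CPM). Sox11 was lower in late nuclei by 0.83 ± 0.01, Sox4 by 0.90 ± 0.03 and Calb2 by 1.58 ± 0.63. Plppr1 did not divide the cluster: it stood at 998 and 987 CPM in w2 and at 952 and 992 CPM in w4.

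**Figure D4:**
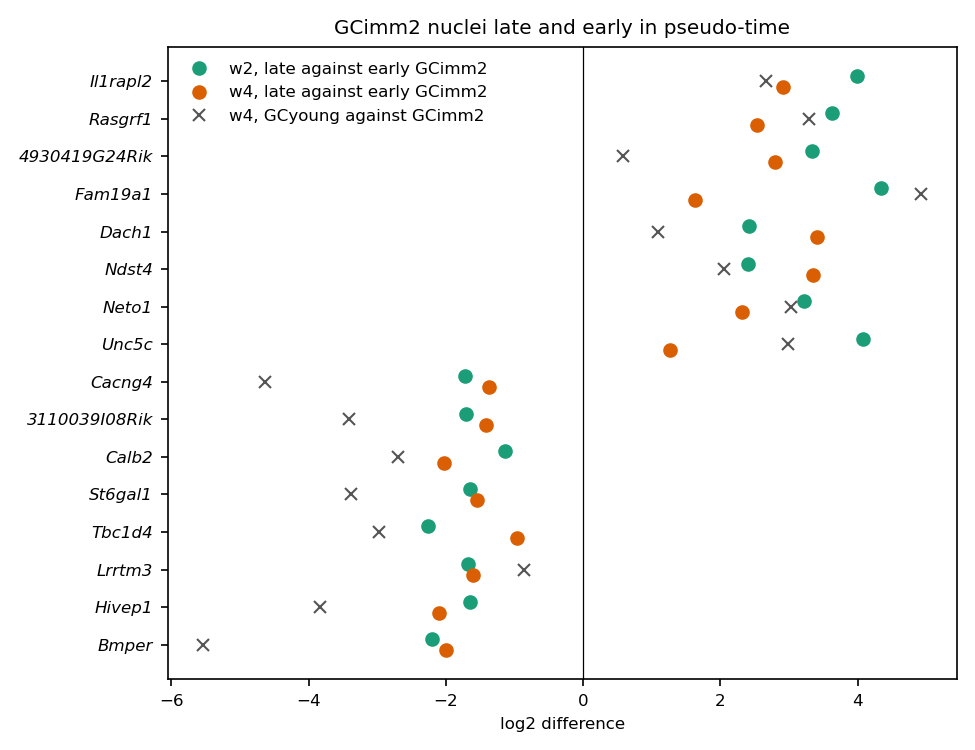
Log2 difference between GCimm2 nuclei late and early in pseudo-time for the 8 genes most higher and the 8 most lower in late nuclei, in w2 (green) and w4 (orange), with the w4 difference of GCyoung against GCimm2 as crosses. All 16 genes lie on the same side of 0 in both libraries because the rule that chose them requires it. The crosses share the w4 nuclei of GCimm2 with the orange points.

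Finally, GCimm2 nuclei 4 weeks after induction were set against those at 2 weeks. With 1 pool per week there is no replicate check, and genes were called at 2-fold with at least 100 UMIs over both sums. Of 8152 genes, 38 were higher in w4 (0.466%) and 60 were lower (0.736%), 1.2% in all. Of the 98 genes called, 33 also differed at least 2-fold the same way between w4 and w2 in GCimm1 (33.7%), 29 in NB1 (29.6%) and 20 in RGL (20.4%). Over all 8152 genes, 1.44%, 5.51% and 5.14% differed at least 2-fold either way in these clusters, some on few UMIs. Gm12280, a predicted gene, stood at 35.9 CPM in w2 and 0.432 CPM in w4 (1 UMI) in GCimm2, and at 36.7 CPM and 0 in GCimm1. Grik1, a kainate receptor subunit, stood at 20.8 and 0.432 CPM (1 UMI) in GCimm2, 22.3 and 1.23 CPM in GCimm1 and 21.6 and 0.736 CPM in RGL. Col14a1, a collagen, went the other way, with 0.599 CPM (3 UMIs) in w2 and 52.2 CPM in w4 in GCimm2, 2.01 and 57.9 CPM in GCimm1 and 1.88 and 58.9 CPM in RGL. Nt5e, the ecto-nucleotidase CD73, stood at 58.1 and 3.88 CPM in GCimm2 and at 58.3 and 3.68 CPM in RGL. For Grik1, Col14a1 and Nt5e the difference thus had the same direction in stem cells and in immature neurons of the same 2 libraries, its size resting in part on few UMIs. The age of the neurons cannot be told apart from the pool of mice or from the age of those mice at collection.

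For other genes the difference between w4 and w2 was smaller in RGL than in GCimm2, or rested there on few UMIs. Myo5b, a myosin motor of recycling endosomes, stood at 44.3 CPM in w2, 245 CPM in w4 and 346 CPM in w8, and at 20.4 and 79.4 CPM in GCimm1 of w2 and w4, while RGL held 4.23 and 5.89 CPM. Ttr, the transthyretin of choroid plexus, was higher by 2.77 (9.78 and 67.3 CPM), by 2.89 in GCimm1 and by 0.53 in RGL (117 and 169 CPM). Cntnap5c was lower by 3.38 on the log2 scale in GCimm2 (42.5 and 3.88 CPM) and by 0.43 in GCimm1, and RGL held 0 and 1 UMI of it. Kcnip4 differed by -1.43 in GCimm2, by 0.80 in GCimm1 and by 0.20 in RGL, with 2933 and 921 CPM in late and 405 and 294 CPM in early GCimm2 nuclei of w2 and w4. The 4 cluster markers did not differ at 2-fold: Plppr1, for one, stood at 992 and 975 CPM.

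**Figure D5:**
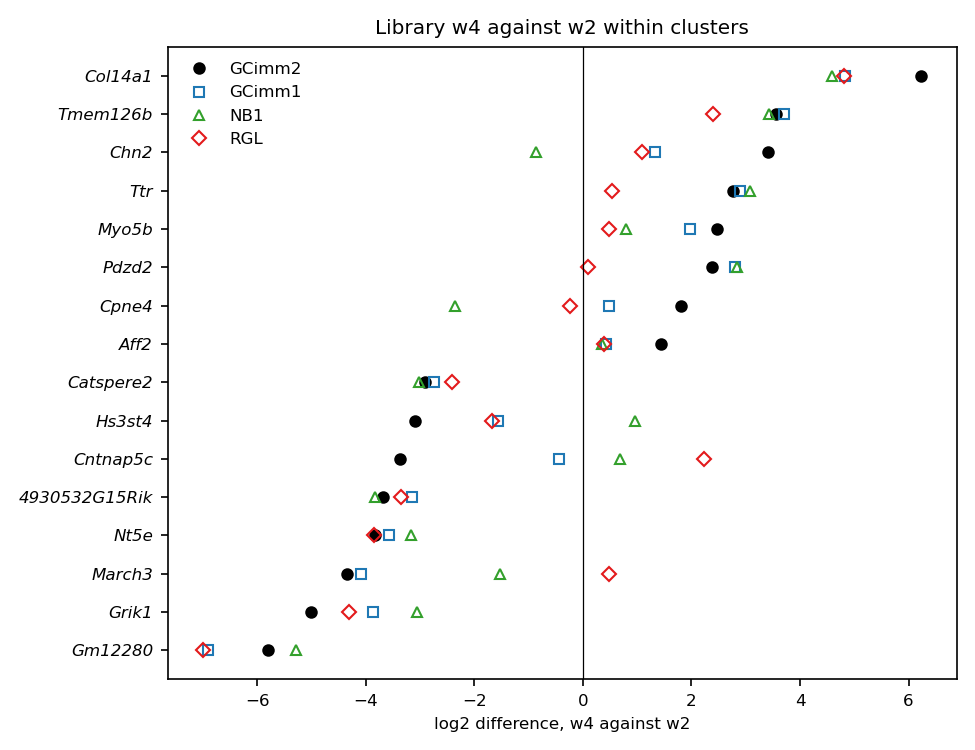
Log2 difference between w4 and w2 for the 8 genes most higher and the 8 most lower in GCimm2 (black), with the same difference in GCimm1, NB1 and RGL (open symbols; some rest on few UMIs). For Col14a1, Nt5e, Grik1, Gm12280, 4930532G15Rik and Catspere2 the 4 clusters lie together; for Cntnap5c, Cpne4 and March3 they spread.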

How the data were processed

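The authors deposited raw UMI counts per gene and barcode for 4 libraries (45706 features), counted with STARsolo 2.7.4a on mm10 over exons and introns per the study's methods and processing notes. The other file the authors deposited holds log2 values of 13353 genes (counts over scran size factors, 1 added) and, above them, every nucleus's library, cluster and pseudo-time; doublets and low-quality nuclei had been removed and clusters assigned by the authors. Genes took GENCODE M21 symbols by identifier (45143 matched; Plppr1 carries an older symbol in the files). Members, gene lists (27 lists, 528 genes) and comparisons were chosen with earlier results of these data known.

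Counts were summed per library and cluster (at least 10 nuclei) and scaled to CPM over all UMIs of the sum. Log2 differences were taken within libraries after adding 0.5 UMI to each sum, which for 0 counts makes a difference depend on that amount. Named genes are the 12 most higher and 8 most lower called genes with at least 50 UMIs in the higher group of each library, 8 each way with 100 UMIs for w4 against w2 and late against early, 12 above both neighbours, the markers and list members. Nuclei are not replicates and no p-value was computed. Thinned values use 2000 UMIs per nucleus (141 nuclei were shallower). Nuclei were called female or male by more UMIs of Xist and Tsix or of 3 Y-linked genes. Alternatives were 48 planned and 4 added after the data were seen. Python 3.11.15 with numpy 2.4.6, scipy 1.17.1 and pandas 2.3.3, and edgeR 4.0.16 in R 4.3.3 (TMM and RLE factors only), were used. Some items are not reported here.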

Additional observations from a re-analysis of the deposited data

Results flagged for a closer look

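Among named and listed genes, some differed at least 1.5-fold in opposite directions in the 2 libraries of a comparison. These contrasts between libraries were not tested, most rest on few UMIs, and genes with both sums of a library at or under 3 UMIs were left out. Values are log2 differences.

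Against GCimm1, Cntnap5c, a contactin-associated protein, was 2.04 in w2 (213 UMIs in GCimm2) and -0.91 in w4 (9 UMIs). Chst9, a carbohydrate sulfotransferase, was 2.97 and -0.75, and Syt13, an atypical synaptotagmin, 1.02 and -0.75. Mcm6, a subunit of the replicative helicase, was 0.70 and -0.71. Mobp, a myelin protein, was -1.5 and 0.59, and 1500011B03Rik was -0.65 and 1.23.

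In GCyoung against GCimm2, the w8 sum of GCimm2 held from 0 to 16 UMIs of the genes concerned. Ezh2, the methyltransferase of Polycomb, was -1.35 in w4 and 1.23 in w8, where GCimm2 held 3 UMIs. Hs3st4, a heparan sulfate sulfotransferase, was 1.27 and -3.09, with 16 UMIs in the 28 GCimm2 nuclei of w8 against 5 in the 406 of w4. Nectin3 was -1.92 and 1.27, Emx1 -1.29 and 0.99 and Marcksl1 -1.02 and 0.83, each with 0 UMIs in GCimm2 of w8. The receptor subunits Grik3 and Grin3a were -0.88 and 0.65, and -0.75 and 0.77, with 1 UMI each. Opposite in order were Cacnb1 (0.82 and -0.74), Cacng5 (0.74 and -1.88), Kcnip1 (0.92 and -0.75), Cdk6 (1.37 and -0.77), Mki67 (2.21 and -1.14) and Sorcs3 (2.20 and -0.93).

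In late against early GCimm2 nuclei, Cntnap5c was 1.44 in w2 and -0.73 in w4, Unc5d was 0.95 and -2.02, and the vesicle protein Rab3b was -1.03 and 0.78.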

How the results depend on the processing

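Counts of called genes depended on the settings. Of 3672 values recomputed over 412 results, 3003 moved by less than the spread between libraries (or, for counts, by less than 1.5 times) and 669 by more. The direction of a called gene changed in 0. Leaving out a library or lowering the UMI minimum cannot reverse a gene called the same way in every library. For these settings the 0 was fixed in advance and says nothing of stability. Clusters were compared within libraries. No paired analysis was possible because the labels give no replicate numbers that would match samples of different weeks, and each week is 1 pool.

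Lower UMI minimums called more genes. At 20 UMIs, 622 genes were higher than in all other nuclei; 537 and 395 were above and below both neighbours; 171 and 342 were higher and lower in w4 than in w2; 382 and 544 were higher and lower in late nuclei. At 1 UMI, 3939 were higher than in all others, 1543 and 1526 were higher and lower than in GCimm1, 7907 were lower in GCyoung, 2283 and 736 were above and below both neighbours, 2171 and 2217 differed between weeks and 928 and 1114 between late and early nuclei. Means of the deposited log2 values, which shrink differences of sparse genes, called 25 and 3 (higher and lower) against all others, 82 and 6 against GCimm1, 149 and 49 for GCyoung, 3 and 0 for both neighbours, 0 and 1 between weeks, and 25 and 3 between late and early. Thinning to 2000 UMIs, with fewer genes tested (8664, 6745, 3393 and 5829 for the comparisons that follow), left 1262 lower in GCyoung, 98 above both neighbours, 16 and 19 between weeks and 159 and 172 between late and early. With TMM and RLE factors, 461 and 465 genes were lower than in GCimm1; GCyoung had 1232 and 1099 higher and 1001 and 1132 lower. Against all others, depth-scaled additions (chosen after seeing the data) gave 217 higher and 1241 lower, and equal weight for each other cluster gave 2360 lower. Within the middle 80% of pseudo-time 37 genes were lower in w4. Among neuronal clusters alone GCimm2 made up 14.8% of w2 and 12% of w4.

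Leaving out 1 library gave 387 to 2285 higher and 568 to 1194 lower against all others (2285 higher without w2, 568 lower without w4, 1194 lower without w8), 555 to 884 higher and 792 to 1758 lower against GCimm1 (884 and 1758 without w4), 792 to 1161 higher and 965 to 2847 lower for GCyoung (1161 without w8, 965 of 4467 genes tested without w4), and 291 to 497 higher and 443 to 797 lower for late nuclei (497 and 797 without w4). The w8 sum of 150112 UMIs limits what can be said of low genes there.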

Other observations

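Of 22 listed activity-induced genes, which are transcribed within minutes to hours of firing, 9 passed the UMI minimum against GCimm1, of which 1 (Bdnf, a neurotrophin) was higher in GCimm2, where 4.62% of all genes were, and none lower. Of 21 measured against all other nuclei, 0 were higher and 2 lower (9.52%, against 1.76% of all genes), and 2 and 2 with TMM scaling. Of 13 measured in GCyoung against GCimm2, 1 was higher (7.69%, against 5.68%) and 2 were lower (15.4%, against 16.4%), and 3 and 1 with TMM scaling. In w4 alone, 3 of 11 measured members (Egr1, Nr4a2 and Sorcs3) were below both neighbours (27.3%, against 1.23% of all genes). None of these 3 was called in the comparisons with GCimm1 or GCyoung that need 2 libraries, where not all listed genes were measured. For GCyoung against GCimm2, the log2 difference of Sorcs3 was 2.20 in w4 and -0.93 in w8. Cell cycle genes summed to 284, 307 and 240 CPM in w2, w4 and w8, against 401 and 368 CPM in GCimm1 of w2 and w4. Barcodes with counts that are in none of the deposited clusters numbered 410, 373, 1628 and 268 in w1, w2, w4 and w8, and Plppr1 stood in them at 106, 345, 149 and 189 CPM.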
